A study of Mus musculus with 11 samples.

Results

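Bone morphogenetic proteins (BMPs) and transforming growth factor-β (TGF-β) signal through paired serine-threonine kinase receptors that phosphorylate SMAD proteins, which then enter the nucleus and regulate target genes. The Id genes are classical direct targets of the BMP branch, whereas the inhibitory SMADs are targets that feed back on the receptors. In stratified epithelium both branches shape keratinocyte proliferation and differentiation, and Langerhans cells (LCs), the dendritic cells of this epithelium, depend on TGF-β family signals and on Id2 for their development. The transcripts of 10 genes of this response were examined in the gingival epithelium. They are the target genes Id1, Id2, Id3 and Id4, the signal transducer Smad3, the inhibitory Smad6 and Smad7, the corepressor Skil, and the receptors Bmpr1a and Tgfbr1. They were taken by symbol from the table of normalized counts, in which 55414 genes are listed and 19170 have values, and all 10 had values.

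The study asked how the loss of LCs around weaning affects the gingiva of the adult. All mice were langerin-DTR mice, in which the langerin promoter drives a diphtheria toxin receptor, so that diphtheria toxin (DT) kills every langerin-expressing cell and not LCs alone. Injections of PBS (5 mice) or DT (6 mice) were given at postnatal days 17, 24 and 31, and the epithelium was collected from adults of 8 weeks. By that age LCs have returned, as the study describes, so the transcriptome was read weeks after the depletion, and the mice of both groups carry the transgene. Total RNA of each mouse was sequenced as a poly(A)-selected library. Between 17509328 and 24325513 reads per mouse were assigned to genes, and the libraries correlated with each other at 0.977 to 0.993 (Pearson, log2 values).

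The epithelial identity of the samples was checked with marker genes. The summed level of 10 keratinocyte markers was between 1808600 and 2010700 normalized counts in PBS mice and between 1856000 and 2070100 in DT mice. The 6 fibroblast markers summed to 1252 to 1450 after PBS and to 1109 to 1594 after DT, and the 6 endothelial markers to 61.9 to 105 after PBS and to 54.4 to 126 after DT. The 6 markers of LCs, Cd207 among them, summed to 2329 to 4937 after PBS and to 1792 to 3103 after DT. All 6 LC markers had a lower mean after DT, and 0 of 6 passed the threshold of a limma adjusted p under 0.1, with 2 of 6 lower at an unadjusted p under 0.05, against 6.19% of all genes. No marker list had a gene past this threshold. The log2 fold change was also below 0 for 5 of 6 macrophage and monocyte, 4 of 4 B cell and 5 of 6 T and innate lymphoid cell markers. It was below 0 for 4 of 6 fibroblast, 4 of 6 endothelial and 2 of 10 keratinocyte markers. In bulk epithelium, fewer cells of a type and less RNA per cell cannot be told apart.

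Promoter sequences are shown for Id3 and Smad6, whose transcripts had the highest correlation of all pairs over the mice, and for Id2 and Id4, the Id genes with the highest and the lowest log2 fold change. SMAD complexes are known to bind the palindrome GTCTAGAC, GC-rich sites such as GGCGCC, and the short element CAGAC. Windows of 275 bases, from 250 bases before to 25 bases after the start site of the RefSeq annotation (GRCm38.p6), were searched on both strands for these letters. The windows below run 5′ to 3′ on the strand of the gene, at chr4:136143572-136143846 (plus strand) for Id3, chr9:64022035-64022309 (minus strand) for Smad6, chr12:25096068-25096342 (minus strand) for Id2 and chr13:48260866-48261140 (plus strand) for Id4, and capitals mark the matches.
Id3: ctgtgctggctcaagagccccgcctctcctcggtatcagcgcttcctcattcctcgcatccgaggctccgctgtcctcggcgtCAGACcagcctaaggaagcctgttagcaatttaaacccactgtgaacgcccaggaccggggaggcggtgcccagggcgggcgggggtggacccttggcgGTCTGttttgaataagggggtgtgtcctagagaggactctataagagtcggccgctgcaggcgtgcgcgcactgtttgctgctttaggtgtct
Smad6: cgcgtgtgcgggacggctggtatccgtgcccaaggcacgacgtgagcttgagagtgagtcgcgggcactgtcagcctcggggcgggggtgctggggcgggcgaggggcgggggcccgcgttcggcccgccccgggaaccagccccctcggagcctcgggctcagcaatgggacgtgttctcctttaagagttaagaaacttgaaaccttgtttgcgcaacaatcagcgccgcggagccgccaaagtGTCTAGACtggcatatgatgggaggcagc
Id2: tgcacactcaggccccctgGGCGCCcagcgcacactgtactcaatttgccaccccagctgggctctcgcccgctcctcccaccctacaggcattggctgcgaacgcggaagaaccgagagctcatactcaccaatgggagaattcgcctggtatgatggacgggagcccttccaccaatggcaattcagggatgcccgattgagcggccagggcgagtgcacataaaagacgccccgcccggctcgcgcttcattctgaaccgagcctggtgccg
Id4: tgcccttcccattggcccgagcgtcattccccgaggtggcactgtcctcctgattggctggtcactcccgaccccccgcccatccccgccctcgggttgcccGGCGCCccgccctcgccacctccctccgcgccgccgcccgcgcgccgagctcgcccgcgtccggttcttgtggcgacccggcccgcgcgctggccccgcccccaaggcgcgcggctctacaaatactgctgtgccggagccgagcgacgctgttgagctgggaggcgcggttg

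Smad6 held the palindrome GTCTAGAC across its start site, with the first base at position -4. These letters occurred in 0.192% of 32851 windows of the same length, and in 1 of the 8 windows found for 7 of the genes. Id3 held the element CAGAC at positions -167 and -68, the latter on the opposite strand, and 1 of the windows of Tgfbr1 held it at -203, against 46.1% of all windows. Id2 held GGCGCC at -231, Id4 at -148, Bmpr1a at -198 and Tgfbr1 at -233, against 10.7% of all windows. CAGAC and its reverse complement are not part of the palindrome. The window of Smad3 held none of these letters, and those of Id1, Skil and Smad7 were not analysed here. The cyclic AMP response element TGACGTCA and the AP-1 site TGANTCA, which occurred in 1.73% and 7.35% of all windows, were in 0 of the 8 windows. A match describes the letters only.

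All 10 genes were expressed in every mouse. Per kilobase of exon, Id1 had the highest level, with 2684 ± 285 normalized counts per kilobase (SD, n = 11 mice), followed by Id3 with 1169 ± 172. Id2 with 429 ± 53.9 and the BMP receptor gene Bmpr1a with 424 ± 27.9 normalized counts per kilobase came next, and their ranges over the mice overlapped. Smad7 had 154 ± 14.9, Id4 147 ± 12, Skil 141 ± 11.8 and Smad3 122 ± 9.36 normalized counts per kilobase, and neighbours among these 4 overlapped. The lowest levels were those of Smad6 with 87.7 ± 10.8 and Tgfbr1 with 83.3 ± 3.84 normalized counts per kilobase, which overlapped with each other. The ranges of the steps from Id1 to Id3, Id3 to Id2, Bmpr1a to Smad7 and Smad3 to Smad6 did not overlap. Levels per length hold only if reads cover whole transcripts, and the methods of the study cite a guide for libraries from the 3′ end whereas the sample labels name a kit for whole transcripts.

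At the group level, 0 of the 10 genes passed the threshold between DT and PBS. Over all 19170 genes, 107 passed (0.558%, limma on log2(normalized count + 1), Benjamini-Hochberg adjusted p under 0.1), of which 60 were higher and 47 lower after DT. The number of genes past the threshold depended on single mice, and lay between 19 higher and 8 lower without DT 5 and 155 higher and 104 lower without PBS 5, but 0 of the 10 genes passed in any of these 11 fits. At an unadjusted p under 0.05, Id4 and Skil were lower and 0 were higher, that is 2 of 10 lower against 6.19% of all genes and 0 of 10 higher against 5.31%. In all 10 genes the values of the groups overlapped, whereas groups without overlap occurred in 2.11% of the 13477 genes averaging 10 or more normalized counts. Fold changes on this scale understate the change of genes with low values. The median log2 fold change of the 10 genes was -0.05, and that of all genes tested was -0.01. The p-values set the difference between the groups against the spread between these mice.

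**Figure D1:**
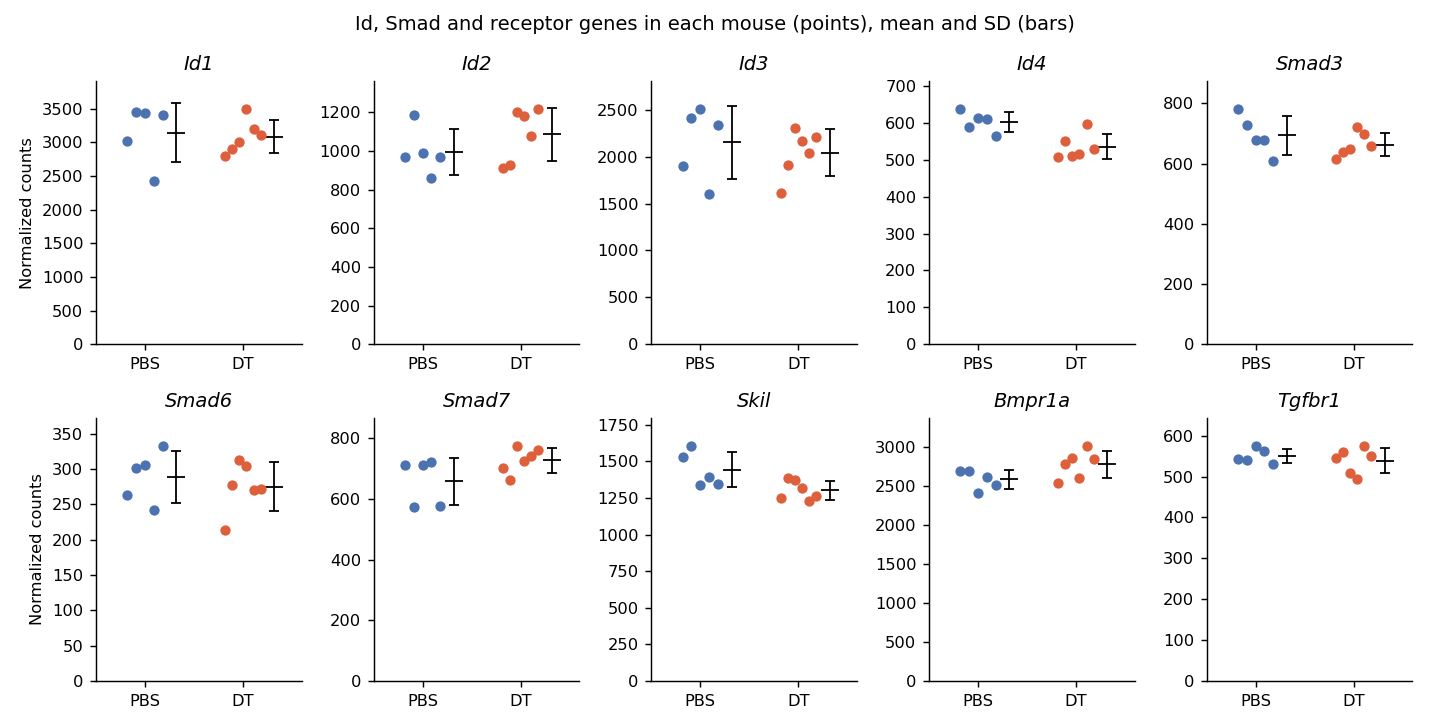
Normalized counts (y axis, from 0) of the 10 genes in each of 5 PBS and 6 DT mice (points), with the mean and SD of each group (bars). The values of the groups overlap in every panel. DT mice lie towards the lower end for Id4 and Skil and towards the upper end for Smad7 and Bmpr1a.

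**Figure D2:**
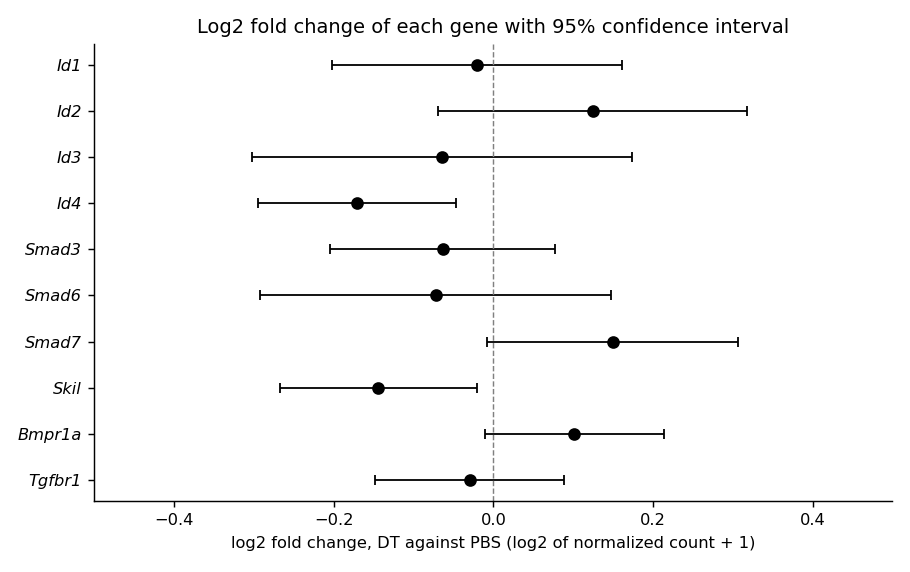
Log2 fold change of DT against PBS (x axis, on the log2(normalized count + 1) scale) with its 95% confidence interval from limma for each of the 10 genes. The intervals of Id4 and Skil lie below 0 before adjustment, the other 8 include 0, and all 10 lie between -0.30 and 0.32.

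In the following, the values of single mice are given in the order of their numbers, from PBS 1 to PBS 5 and from DT 1 to DT 6. Id proteins are helix-loop-helix factors without a DNA-binding region, which bind E proteins and keep them from DNA. Id1 (ENSMUSG00000042745), the highest of the family here per kilobase, had 3026, 3454, 3432, 2423 and 3403 normalized counts in the PBS mice, against 2795, 2905, 3001, 3494, 3201 and 3111 in the DT mice. PBS 4 was the lowest mouse, and the range of the DT mice lay within that of the PBS mice except for DT 4. Means were 3147 ± 441 (SD, n = 5) and 3084 ± 247 (SD, n = 6), and the log2 fold change was -0.02 ± 0.09 (SE, limma adjusted p = 0.955). The 95% confidence interval of the log2 fold change ran from -0.20 to 0.16. The sign of this small difference turned positive without PBS 2, PBS 3, PBS 5 or DT 1, reaching 0.0162 on the log2 scale.

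Id3 (ENSMUSG00000007872), which often accompanies Id1, had 1904, 2413, 2507, 1599 and 2339.8 normalized counts in the PBS mice, against 1614, 1915, 2309.8, 2172, 2039.8 and 2212 in the DT mice. The lowest mouse of each group, PBS 4 and DT 1, had nearly the same level. Means were 2153 ± 386 (SD, n = 5) and 2044 ± 252 (SD, n = 6), with a log2 fold change of -0.06 ± 0.11 (SE, limma adjusted p = 0.872) and a 95% confidence interval from 0.811-fold to 1.13-fold. Without DT 1 the log2 fold change was 0.002. Id3 had the widest spread of the 10 genes, with the highest mouse 1.57 times the lowest.

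Id2 (ENSMUSG00000020644), the Id gene that LCs need, had 969.7, 1186, 989, 862 and 968 normalized counts in the PBS mice, against 910.1, 929, 1199.7, 1182, 1080.3 and 1216 in the DT mice. Only DT 3 and DT 6 were above every PBS mouse, and DT 1 and DT 2 were below the PBS mean of 995 ± 118 (SD, n = 5). The mean after DT was 1086 ± 138 (SD, n = 6), the log2 fold change was 0.12 ± 0.09 (SE, limma adjusted p = 0.643), and the 95% confidence interval ran from 0.953-fold to 1.25-fold. The summed LC markers stood at 1792 in DT 3 and 2514 in DT 6, and at 4937 and 4097 in PBS 3 and PBS 5, where they were highest. Their part in the level of Id2 was not tested.

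Id4 (ENSMUSG00000021379) is an atypical member of the family that can oppose the other Id proteins. It had 637, 589, 613, 609 and 563 normalized counts in the PBS mice, against 508, 550.0, 509.7, 516, 598 and 529 in the DT mice. All DT mice except DT 5 were below all PBS mice, and all 6 were below the PBS mean. Means were 602 ± 27.6 (SD, n = 5) and 535 ± 34.3 (SD, n = 6), and the log2 fold change was -0.17 ± 0.06 (SE), with a 95% confidence interval from 0.815-fold to 0.968-fold. The unadjusted limma p of 0.010 did not pass after adjustment over all genes (limma adjusted p = 0.269). Over the 19 alternative fits the log2 fold change lay between -0.20 and -0.15, and the limma adjusted p between 0.174 and 0.605.

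Whether a pair of Id genes differed in response was examined with their ratio within each mouse, for all 6 pairs, which does not depend on the scaling of a library. The log2 ratio of Id2 to Id4 was 0.61, 1.01, 0.69, 0.50 and 0.78 in the PBS mice, against 0.84, 0.76, 1.23, 1.19, 0.85 and 1.20 in the DT mice. All 6 DT mice were above the PBS mean of 0.72 ± 0.19 (SD, n = 5), and DT 3, DT 4 and DT 6 were above every PBS mouse. The difference was 0.30 (exact permutation test over 462 splits of the mice, two-sided, p = 0.054), and over the 6 Id pairs the adjusted p was 0.162 by the same exact test. The log2 ratio of Id2 to Id3 likewise had a higher mean after DT, at -0.91 ± 0.08 (SD, n = 6) against -1.10 ± 0.20 (SD, n = 5), with an exact permutation p of 0.0498 and an adjusted p of 0.162. None of the 6 pairs passed the threshold of 0.05 after adjustment, and the other 4 pairs differed by -0.14 to 0.15.

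**Figure D3:**
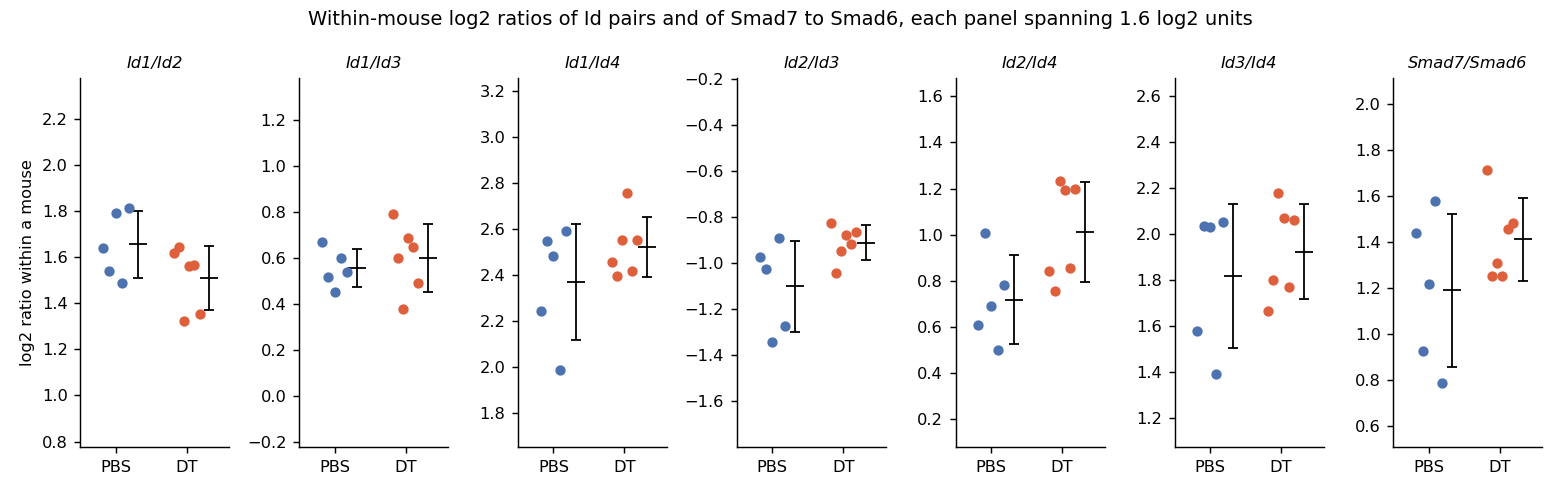
Log2 ratio within each mouse (y axis) for the 6 pairs of Id genes and for Smad7 to Smad6, with points for 5 PBS and 6 DT mice and bars for the mean and SD. The groups overlap in all 7 panels. For each of Id2 to Id4, Id2 to Id3 and Id3 to Id4, 3 of 6 DT mice lie above all PBS mice.

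Smad3 (ENSMUSG00000032402) carries the signal of the TGF-β and activin receptors. It had 781, 728, 678, 678 and 609 normalized counts in the 5 PBS mice, whereas the DT mice ranged from 614 to 720.3 (median 653). The DT mice lay within the range of the PBS mice. The log2 fold change was -0.06 ± 0.07 (SE, limma adjusted p = 0.770), with a 95% confidence interval from 0.868-fold to 1.06-fold. The 5 other Smad genes, Smad1, Smad2, Smad4, Smad5 and Smad9, had log2 fold changes between -0.06 and 0.16, and 0 of 5 passed.

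Smad6 (ENSMUSG00000036867), the inhibitor that acts mainly on BMP receptors, had 263, 301, 306, 241 and 333 normalized counts in the PBS mice, against 213, 278, 312, 304, 269.8 and 271 in the DT mice. DT 1 was lowest, and the other DT mice lay within the range of the PBS mice. Means were 289 ± 36.4 (SD, n = 5) and 275 ± 34.9 (SD, n = 6), and the log2 fold change was -0.07 ± 0.10 (SE, limma adjusted p = 0.841), with a 95% confidence interval from 0.817-fold to 1.11-fold. With 186 to 329 reads per mouse, Smad6 was the least covered of the 10 genes, and counting alone gave an error of up to 7.33%.

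Smad7 (ENSMUSG00000025880), which inhibits both branches, had 713, 572, 711, 722 and 575 normalized counts in the PBS mice, against 700.3, 662, 775, 725, 743 and 759.6 in the DT mice. PBS 2 and PBS 5 were lower than all other mice, and 4 of the 6 DT mice were above every PBS mouse. Means were 659 ± 77.7 (SD, n = 5) and 727 ± 41.2 (SD, n = 6), and the log2 fold change was 0.15 ± 0.07 (SE, limma adjusted p = 0.458), with a 95% confidence interval from 0.994-fold to 1.24-fold. The log2 ratio of Smad7 to Smad6 was 1.19 ± 0.33 (SD, n = 5) in PBS mice and 1.41 ± 0.18 (SD, n = 6) in DT mice. This difference of 0.22 was within the spread of the mice (exact permutation test, two-sided, p = 0.201).

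Skil (ENSMUSG00000027660) encodes SnoN, a corepressor that binds SMAD proteins and is itself a TGF-β target. It had 1532, 1606, 1341, 1393 and 1346 normalized counts in the PBS mice, against 1252, 1384, 1372, 1319, 1232 and 1265 in the DT mice. DT 1, DT 4, DT 5 and DT 6 were below every PBS mouse, whereas DT 2 and DT 3 lay among them, and PBS 1 and PBS 2 were highest. Means were 1444 ± 119 (SD, n = 5) and 1304 ± 64.2 (SD, n = 6). The log2 fold change was -0.14 ± 0.06 (SE, limma unadjusted p = 0.025, adjusted p = 0.350), with a 95% confidence interval from 0.831-fold to 0.986-fold. Ski, the related corepressor gene, had a log2 fold change of -0.02 (limma adjusted p = 0.914).

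Bmpr1a (ENSMUSG00000021796) encodes a type I receptor for BMPs. It had 2695, 2689, 2417, 2616 and 2513 normalized counts in the PBS mice, against 2539, 2785, 2866, 2605, 3015 and 2852 in the DT mice. DT 2, DT 3, DT 5 and DT 6 were above every PBS mouse, and DT 1 and DT 4 were among them. The log2 fold change was 0.10 ± 0.05 (SE, limma adjusted p = 0.484), with a 95% confidence interval from 0.992-fold to 1.16-fold. Tgfbr1 (ENSMUSG00000007613), the type I receptor for TGF-β, had 542, 541, 574, 562 and 529.9 normalized counts in the 5 PBS mice, whereas the DT mice ranged from 495 to 575 (median 547). Its log2 fold change was -0.03 ± 0.06 (SE, limma adjusted p = 0.881), and with the highest mouse at 1.16 times the lowest it had the narrowest spread of the 10 genes.

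Among the 45 pairs of the 10 genes, Id3 and Smad6 and Id1 and Id3 had the highest Pearson correlations from mouse to mouse. Over the 11 mice the log2 values of Id3 and Smad6 had a Pearson r of 0.89 (100000 permutations, p = 0.00029, adjusted over the 45 pairs of the 10 genes p = 0.011) and a Spearman rho of 0.84 (permutation p = 0.0024, adjusted p = 0.106). Id1 and Id3 had a Pearson r of 0.86 (permutation p = 0.00050, adjusted p = 0.011) and a Spearman rho of 0.75 (permutation p = 0.012, adjusted p = 0.261). These 2 pairs of the 45 passed an adjusted p under 0.05 with Pearson's r, and 0 passed with Spearman's rho. PBS 4 and DT 1 were the lowest mice of their group in all 3 genes. Without the pair of mice farthest from the median of the gene named first, r was 0.75 for Id3 and Smad6 (without PBS 4 and DT 1) and 0.85 for Id1 and Id3 (without PBS 4 and DT 4). DT 1, low in both genes, thus stayed in for Id1 and Id3. Leaving out PBS 4 and DT 1 together was not tested for Id1 and Id3. Leaving out PBS 4 alone gave an r of 0.89 for Id3 and Smad6 (permutation adjusted p = 0.058) and 0.79 for Id1 and Id3 (permutation adjusted p = 0.133), and leaving out DT 1 alone gave 0.86 for both pairs (permutation adjusted p = 0.060).

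Values within the groups were as follows. As deviations from the mean of the own group, r was 0.89 for Id3 and Smad6 and 0.86 for Id1 and Id3. Within the 6 DT mice r was 0.91 for Id3 and Smad6, 0.62 for Id1 and Id3 and 0.61 for Id1 and Smad6, with no test. Id1 and Smad6 did not pass, with an r of 0.74 over the 11 mice (permutation adjusted p = 0.159), nor did Id2 and Id3, with an r of 0.67 (permutation adjusted p = 0.287). Id4 did not follow these genes and had its highest correlation with Tgfbr1, at 0.60 (permutation adjusted p = 0.392). The median r of the 45 pairs was 0.05, and 26 pairs were positive. Endothelial markers, whose cells are known for Id1, Id3 and Smad6, summed to 105 in PBS 4 and 118 in DT 1, the highest value among PBS mice and the next to highest among DT mice. Keratinocyte markers summed to 1808610 in PBS 4, the lowest of all mice, and to 1894750 in DT 1, the next to lowest among DT mice. LC markers summed to 2329 in PBS 4, the lowest among PBS mice, and to 2379.6 in DT 1, where 2 DT mice were lower. Of the immediate early genes described below, Fos had 9475 and Atf3 731 normalized counts in PBS 4, the highest among PBS mice. In DT 1 they had 13519 and 1301, within the range of the other DT mice. PBS 4 was not the highest PBS mouse for Klf2 and Jund. The depth was 22180195 reads in PBS 4 and 17509328 in DT 1, the highest among PBS mice and the lowest of all mice. Their part in the relation was not tested.

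**Figure D4:**
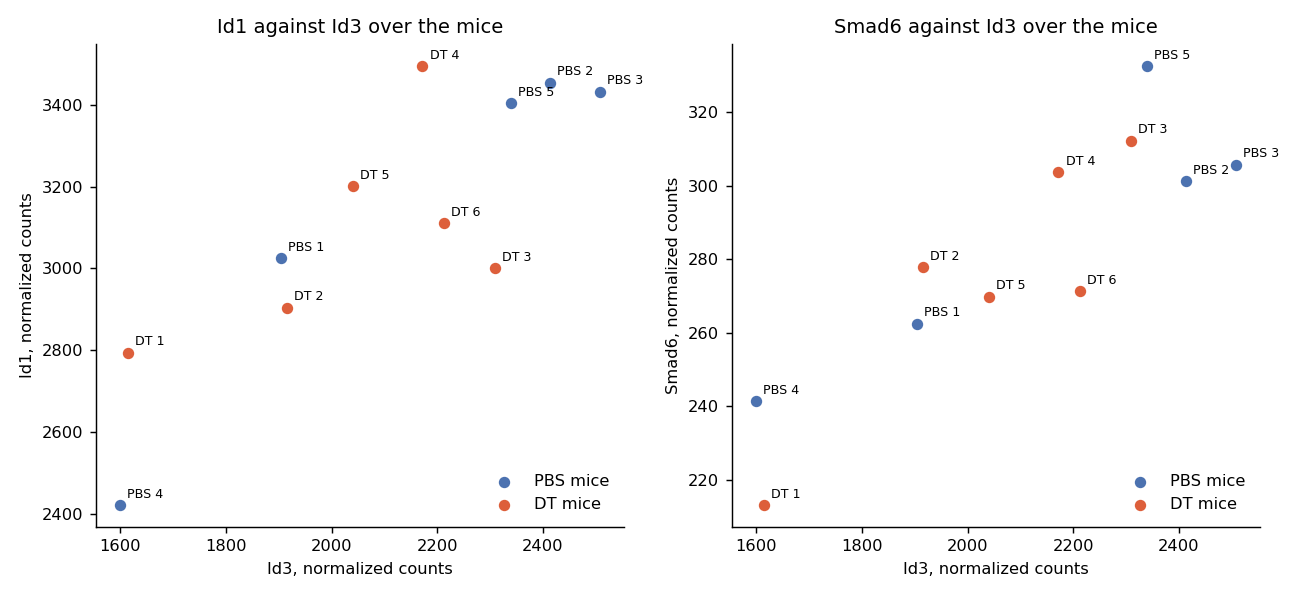
Normalized counts of Id1 (left, y axis) and Smad6 (right, y axis) against those of Id3 (x axes) in 5 PBS mice and 6 DT mice, labelled by mouse. PBS 4 and DT 1 lie at the low end of both plots, and mice of both groups are mixed along the trend (r = 0.86 and 0.89).

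The genes most like each of the 10 over the 11 mice were taken from 10018 other genes averaging 100 or more normalized counts, with Pearson's r of the log2 values as the measure of likeness. With 11 mice these values describe the libraries only. Id3 was closest to Polr3c, Foxe1 and Adgrf4 (r of 0.90 to 0.93), and Id1 to Trappc1, Acot13 and Polr3c (0.91 to 0.93), so that Polr3c was among the closest of both. Smad6 ranked 5 and Id1 ranked 16 among the genes most like Id3. Id3 ranked 27 and Smad6 ranked 310 among those most like Id1, and Id3 ranked 10 and Id1 ranked 168 among those most like Smad6. Smad6 was closest to Crip2, Usp12 and Fgf22 (0.93 to 0.95), and Id2 to Wnt3a, Zfp296 and Elmo2 (0.88 to 0.93). For Id4 they were Zfp516, Lnpk and Acsl4, for Skil Hk2, Amn1 and Rhno1, for Smad3 Taf15, Crocc and Mblac2, and for Smad7 Mtrex, Armc5 and Dctn4. Bmpr1a was closest to Dlk2, Fam172a and Ndrg3 and Tgfbr1 to Atf6, Lmo4 and Ubn1, the latter at 0.85 to 0.86.

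The wider pathway was described with 101 genes in 9 lists, of which 89 had values. Of these 2 were higher and 0 lower at a limma adjusted p under 0.1, against 0.313% and 0.245% of all genes. At an unadjusted p under 0.05, 8 of the 89 were higher and 6 lower, against 5.31% and 6.19% of all genes. Their median log2 fold change was -0.01. Without values were the ligands Bmp5, Gdf6, Gdf7, Gdf10, Mstn and Nodal, the receptors and co-receptors Acvr1c, Hjv and Tdgf1, the inhibitor Bmper, and the targets Gata2 and Snai1.

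Among 8 BMP ligands with values, 0 passed the threshold. Bmp7, a ligand known to instruct LCs in mucosal epithelium, had 1892 ± 143 (SD, n = 5) in PBS mice and 2143 ± 239 normalized counts (SD, n = 6) in DT mice, and a log2 fold change of 0.18 ± 0.07 (SE, limma adjusted p = 0.375). Bmp3 was scarce, with 47.2 and 35.2 normalized counts on average, and its log2 fold change was -0.46 ± 0.26 (SE, limma adjusted p = 0.529). Among 7 TGF-β and activin ligands 0 passed, with log2 fold changes of 0.18 ± 0.08 for Tgfb2 (SE, limma adjusted p = 0.438), -0.41 ± 0.22 for Tgfb3 (SE, limma adjusted p = 0.498) and -0.13 ± 0.13 for Tgfb1 (SE, limma adjusted p = 0.761), the isoform on which LCs depend.

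Receptors gave a similar picture. Bmpr2, the type II receptor that pairs with Bmpr1a, had 4508, 4086, 3640.0, 4685 and 3915 normalized counts in the PBS mice, against 3819, 3733, 3532, 3338, 3553 and 3608 in the DT mice. Only PBS 3 lay among the DT mice, and without it Bmpr2 passed the threshold (log2 fold change -0.25, limma adjusted p = 0.098), whereas with all mice it did not (-0.21 ± 0.06, SE, limma adjusted p = 0.219). Acvr2b, an activin receptor with 61.8 and 44.9 normalized counts on average, had a log2 fold change of -0.42 ± 0.17 (SE, limma adjusted p = 0.361). Of the 4 other type I receptors with values, 0 passed, and Acvr1b and Acvr1 had log2 fold changes of -0.07 and 0.06.

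Of 19 secreted inhibitors and proteins of the latent complex with values, 0 passed. Twsg1, which binds BMPs outside the cell, had 4146, 4231, 4143, 4121 and 3837 normalized counts in the PBS mice, against 4393, 4400.0, 4765, 4443, 4864 and 4556 in the DT mice. Every DT mouse was above every PBS mouse, but the log2 fold change of 0.16 ± 0.05 (SE) did not pass (limma adjusted p = 0.210). Bambi, a pseudoreceptor without kinase activity, had a log2 fold change of 0.22 ± 0.08 (SE, limma adjusted p = 0.322). Of 15 intracellular regulators, 0 passed, among them the corepressor gene Tgif2 at -0.45 ± 0.18 (SE, limma adjusted p = 0.361) and Zfyve9, which presents SMADs to the receptor, at 0.12 ± 0.05 (SE, limma adjusted p = 0.367).

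Of 19 target genes with values, Junb and Ccn1 rose after DT. Junb, a subunit of AP-1 that is also in the list of immediate early genes, had 6356, 5312, 6753, 7505 and 5492 normalized counts in the PBS mice, against 9757, 8514, 9474, 9802, 10608 and 11971 in the DT mice. The groups did not overlap, and the log2 fold change was 0.68 ± 0.09 (SE, limma adjusted p = 0.0082). Ccn1, a secreted matricellular protein, had 377, 226, 235, 912 and 131 normalized counts in the PBS mice, against 1137, 615, 859, 739, 1085 and 1322 in the DT mice. PBS 4 lay among the DT mice. Ccn1 was not in the list of immediate early genes. PBS 4 was also the highest PBS mouse for Junb, Fos, Egr1 and Atf3 of that list, but not for Klf2 and Jund. Whether Ccn1 moved with these genes was not tested. The log2 fold change of Ccn1 was 1.63 ± 0.35 (SE, limma adjusted p = 0.078), and it did not pass in 8 of the 11 fits with a mouse left out, those without PBS 1, PBS 2, PBS 3, DT 1, DT 3, DT 4, DT 5 or DT 6 (limma adjusted p of 0.124 to 0.204).

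The other target genes did not pass. Msx2, a homeobox gene induced by BMPs, had a log2 fold change of 0.24 ± 0.08 (SE, limma adjusted p = 0.256), and Snai2 one of 0.36 ± 0.13 (SE, limma adjusted p = 0.290). Hes1 had a log2 fold change of -0.15 ± 0.06 (SE, limma adjusted p = 0.344). Of the 3 E protein genes, whose products the Id proteins bind, Tcf4 had 394 ± 22.6 normalized counts (SD, n = 5) in PBS mice and 336 ± 22.9 (SD, n = 6) in DT mice, with a log2 fold change of -0.23 ± 0.07 (SE, limma adjusted p = 0.201), and Tcf12 one of 0.09 ± 0.07 (SE, limma adjusted p = 0.660).

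**Figure D5:**
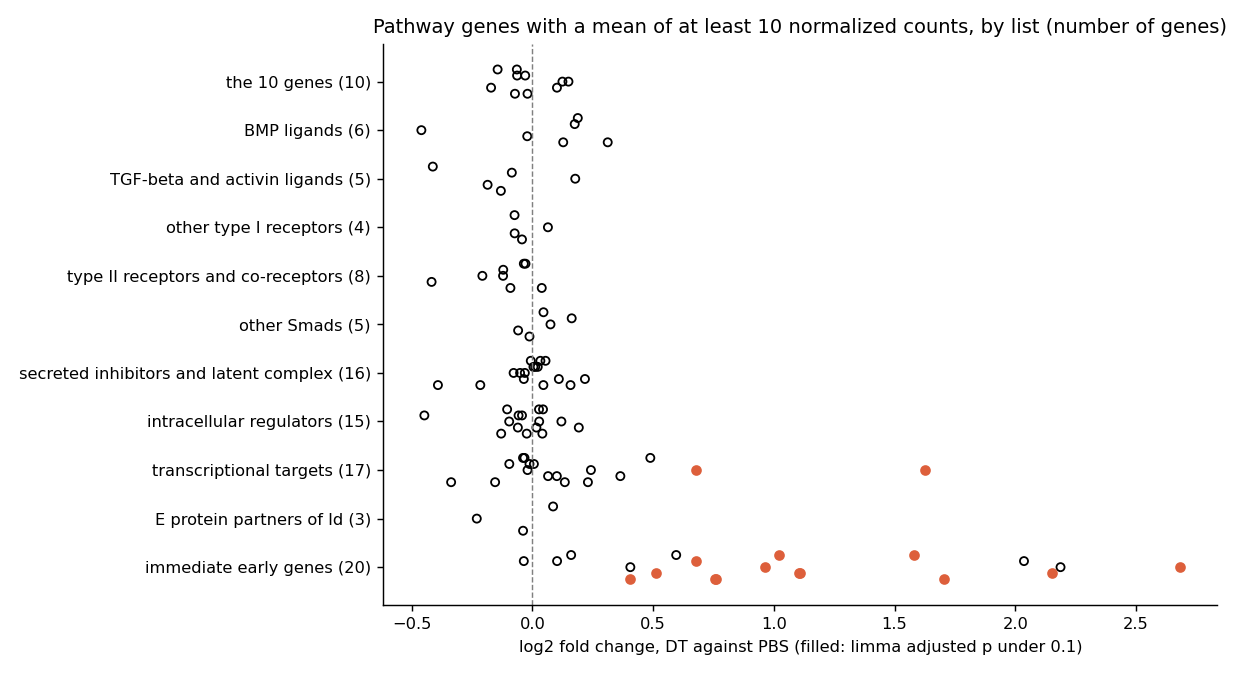
Log2 fold change of DT against PBS (x axis) for the 10 genes and for the genes of each pathway list averaging 10 or more normalized counts (rows, with the number of genes), filled where the limma adjusted p was under 0.1. Filled points occur for Junb and Ccn1 among the target genes and for 13 of the 20 immediate early genes, and all 10 genes of the first row lie between -0.17 and 0.15.

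Immediate early genes are induced by many stimuli without new protein synthesis. Of 20 such genes 13 were higher and 0 lower, against 0.313% of all genes that were higher, and their median log2 fold change was 0.86. This list was chosen with earlier results of these data known, so its count is not an independent test. With a block on the library number, without DT 5, 0 of all genes were higher and 0 lower at this threshold. Fos rose by 1.70 ± 0.26 on the log2 scale (SE, limma adjusted p = 0.0090) and Jun by 1.11 ± 0.17 (SE, limma adjusted p = 0.0090), both without overlap of the groups. Atf3 rose by 2.68 ± 0.41 (SE, limma adjusted p = 0.0093). Ier2, Btg2, Dusp1, Zfp36, Egr1, Klf2, Egr2, Jund and Klf6 rose as well. Their log2 fold changes lay between 0.40 and 2.15, with limma adjusted p between 0.0048 and 0.080. The groups overlapped in Egr1, Egr2 and Klf6. Of the 13 genes, Egr1, Klf2, Egr2, Jund and Klf6 did not pass without at least 1 of the mice, with limma adjusted p of up to 0.217.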

How the data were processed

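RNA was sequenced from gingival epithelium of 5 mice given PBS and 6 given DT. The authors trimmed reads, aligned them with TopHat, counted per gene with htseq-count, dropped genes whose counts summed to less than 10 and scaled the counts with DESeq2 size factors. The deposited values are therefore normalized counts per gene and mouse, and not raw counts. The methods of the study name GRCm38 and the submitters' processing notes name GRCm39 with cutadapt 2.10, TopHat2 2.1.1, HTSeq 2.01 and DESeq2 1.36.0, so no gene coordinates of the authors' build are given. Genes listed without a value (36244) were not tested. Depth was recovered from the value of a single read in each mouse, of which 100% of low values were whole multiples within 0.1 reads, and covers counting error only. The recovered reads were not accepted for count tests. Genes without a value hold a question mark in place of a number, and a read is worth close to 1 in some mice. The 19170 genes tested have a value in every mouse. The recovered reads serve only to state depth and counting error.

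Groups followed the treatment in the labels, which give no batch. All 11 mice were compared with limma 3.58.1 in R 4.3.3 (intensity trend, no covariate, two-sided) on log2(normalized count + 1). P-values were adjusted by the Benjamini-Hochberg method over all 19170 genes, and an adjusted p under 0.1 passed. For ratios within a mouse, exact permutation tests (two-sided) over 462 splits were used, whose smallest p is 0.00216, and correlations with 100000 permutations. The procedure was tested on simulated data. The members and the lists were chosen with earlier results of these data known, and the correlations were added after the values were seen.

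All 10 genes are named. Of each pathway list, genes past the threshold and those with the 2 smallest p among those averaging 10 or more normalized counts are named, and for each of the 10 genes the 3 most alike. Tgfb1, Ski, Msx2, Snai2 and Hes1 were named after their values were seen. Exon lengths came from GENCODE M21 and promoters from RefSeq (GRCm38.p6). As alternatives, the pseudocount was 0.25 or 8, low genes were filtered (mean under 10), TMM scaling, quantile normalization or array weights were applied, mice were blocked by number, and each mouse was left out.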

Additional observations from a re-analysis of the deposited data

Results flagged for a closer look

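Of 94 sets of values, each a named gene or a ratio in a treatment group, 3 held a mouse that stood apart from the rest of its group by Dixon's criterion, which chance meets in about 1 in 20 sets. Twsg1 had 3837 normalized counts in PBS 5 against 4121 to 4231 in the other PBS mice, and Acvr1b had 2212 in PBS 5 against 2408 to 2472. Atf3 had 731 normalized counts in PBS 4 against 107 to 169.7 in the other PBS mice. None of the 10 Id, Smad, Skil and receptor genes held such a value.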

How the results depend on the processing

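None of the 10 genes passed the threshold under any of the 19 alternative fits. The direction held for 8 of them, whereas Id1 was above 0 without PBS 2, PBS 3, PBS 5 or DT 1 and Id3 without DT 1. Over the 11 fits that each omitted a mouse, the log2 fold change was -0.11 to 0.0162 for Id1 and -0.17 to 0.00163 for Id3. No ratio passed in any alternative. Over all genes, 110 were higher and 79 lower with array weights, and leaving out a mouse gave 19 to 155 higher and 8 to 104 lower. With a replicate block on the number in the sample titles, without DT 6, 24 were higher and 12 lower. With a block on the library number, added after the data were seen and without DT 5, 0 were higher and 0 lower by limma (1397 at an unadjusted p under 0.05). Mice with the same number had correlations of deviations from the group mean of -0.233 to 0.324. Without values for mice of unlike number, these cannot tell whether the numbers pair the mice. Junb kept its call in 18 of 19 fits and lost it with the library block (limma adjusted p = 0.113), and Ccn1 kept it in 9. The cause was not tested. Tests on recovered reads with edgeR and DESeq2 had been planned and were not run. Depth gave a counting error of 2.03% for Id1 and 7.33% for Smad6 in the mouse with fewest reads.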
